A study of Mus musculus with 6 samples.

Results

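The genes described here are the translation initiation factors, the proteins that bring messenger RNA, initiator tRNA and the ribosomal subunits together at a start codon. They were chosen by symbol, as rows of the count table that begin with Eif and a digit from 1 to 6. Eif4a3, Eif2s3y and the kinases and binding proteins whose symbols begin with Eif2ak, Eif4ebp or Eif4enif were left out by the same rule. Of 45 such rows among 24047 in the table, 42 had 10 or more counts in at least 3 libraries and are called members below. The 3 rows that did not reach this minimum, Eif3j1, Eif3j2 and Eif4e1b, held 0 counts in all 6 libraries. The lowest member was Eif5a2, with 117 to 298 counts per library. All 42 members passed the test's own filter on low counts, and each had at least 117 counts in every library.

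CD4 T cells of 3 wild-type mice (WT) and of 3 mice with the label Srsf1-cKO, a conditional knockout, were sequenced. The knockout genotype is written Srsf1-flox/flox dLck.Cre, meaning floxed alleles of Srsf1 and a Cre recombinase driven by the distal Lck promoter, which is active in T cells. The sources used here do not say whether the WT mice carried the floxed alleles or the Cre. All mice were 7 weeks old, of a strain labelled B6.129, and all cells came from the spleen. In both genotypes naive cells were exposed to anti-CD3 at 0.5 µg/mL plus anti-CD28 at 1 µg/mL, and activation lasted 72 h. A second stimulus of 4 h followed, with 100 ng/mL of the phorbol ester PMA plus 1 µM ionomycin. No cytokine that steers cells to a helper lineage is named, and the cells are labelled Th0. SRSF1 is an RNA-binding protein of the serine/arginine-rich family that acts in splicing. The question asked of these genes is whether their mRNA levels differed between the genotypes after stimulation.

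As background, initiation begins when eIF2 bound to GTP carries the initiator tRNA to the small ribosomal subunit, together with eIF1, eIF1A, eIF5 and the large eIF3 complex. The eIF4 proteins bind the cap of an mRNA, unwind its leader and bring it to that subunit, which then scans for a start codon. eIF5B joins the large subunit, and eIF2B exchanges GDP for GTP on eIF2 so that eIF2 can be used again. Naive T cells make little protein, and activation through the T cell receptor and CD28 raises protein synthesis strongly.

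Each library held 7781283 to 10184268 gene counts, and the members took 1.80% to 1.99% of them. Srsf1 itself, the gene targeted by the knockout, had 540, 458 and 486 CPM (gene counts divided by the library's size, scaled by the trimmed mean of M-values, TMM) in the WT libraries. It had 523, 548 and 471 CPM in the libraries labelled Srsf1-cKO, so the groups overlapped (log2 fold change 0.06, standard error [SE] 0.12, edgeR adjusted p = 0.780). The counts per gene do not say whether a floxed exon was removed, so this value does not check the labels, and the second group is named by its label throughout. CD4 T cell markers were detected in every library, with 2564 to 2841 CPM summed over 8 markers in WT and 2284 to 3290 in Srsf1-cKO. Markers of B, myeloid, dendritic and NK cells were scarce, but their sums were higher in Srsf1-cKO. The summed level of 5 B cell markers was 1.19 to 6.50 CPM in WT and 7.98 to 19.6 in Srsf1-cKO (1 of 4 tested was called higher). For 5 myeloid markers the ranges were 0.66 to 4.64 and 7.46 to 21.2 CPM, and for 5 dendritic cell markers, mostly Cd74, they were 46.7 to 76.4 and 96.7 to 118 (1 of 2 and 2 of 3 tested were called higher). The 2 dendritic cell markers called higher were Cd74 and H2-Aa. Zbtb46 (3.90 to 21.2 CPM in WT, 6.25 to 8.82 in Srsf1-cKO) and Flt3 (0.26 to 0.44 and 0.22 to 0.28) did not rise, and Itgax was at 0 in the 3 WT libraries. For 3 NK cell markers, almost all Klrk1 in Srsf1-cKO, the ranges were 0 to 0.65 and 4.00 to 11.9 CPM. Ncr1 was at 0 in all 6 libraries and Klrb1c at or below 0.28 CPM. The 2 CD8 markers gave 24.6 to 42.5 CPM in WT and 16.7 to 22.8 in Srsf1-cKO. Their sum was almost all Cd8b1, which was not called. Cd8a stood at 0.33 to 0.52 CPM in WT and at 0.11 to 1.22 in Srsf1-cKO, with overlap. The 5 erythroid markers stayed at or below 0.53 CPM, with Hba-a1, Hba-a2 and Alas2 at 0. The summed B cell, myeloid, dendritic cell, NK cell and CD8 markers separated the genotypes, while the CD4 and erythroid sums overlapped. The members' differences below lie between the same libraries, and the part of the marker levels in them was not tested. In a bulk sample, fewer cells of a type and less RNA per cell cannot be told apart.

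The start sites of the members that changed are shown first, because many mRNAs of the translation machinery begin with an oligopyrimidine tract, a C followed by an unbroken run of C and T. The sequences are from RefSeq on GRCm38.p6, whose coordinates are not those of the mm9 build used for the counts, and each runs from 15 bases before the annotated start to the 15th base from it. Capitals mark the annotated first base of the mRNA and any unbroken pyrimidines that follow it. Eif3f is the member that fell and carries the tract, at chr7:108934400-108934429 on the plus strand. Eif2a (chr3:58525806-58525835, plus), Eif3k (chr7:28981874-28981903, minus), Eif1 (chr11:100319934-100319963, plus) and Eif5a2 (chr3:28781262-28781291, plus) changed and lack it at the annotated start. Eif2s3x (chrX:94212637-94212666, minus), the gene for the gamma subunit of eIF2, carries it and did not pass the test. It was added to the set after its values were seen.
Eif3f: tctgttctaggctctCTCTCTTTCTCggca
Eif2a: gtgtggactccgcccGctccggagagggag
Eif3k: aaaacaaccggcgctGgtgctgaaagcgcc
Eif1: gcgctggcgtcacagGggcggctatataag
Eif5a2: ggcgggcccgggctgGgcgggccggggcgg
Eif2s3x: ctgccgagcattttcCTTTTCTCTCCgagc

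A tract was counted where the annotated start is a C followed by at least 4 bases that are each C or T, read on the gene's own strand. Of 42 members 34 had an entry, and 2 of these 34 carried a tract, Eif3f and Eif2s3x, each with a run of 11 pyrimidines. The 8 members without an entry were Eif1a, Eif2b3, Eif3e, Eif3h, Eif3i, Eif4e3, Eif4g2 and Eif6. Of all 32851 annotated starts 2.51% carried such a tract. When a run of at least 5 pyrimidines could begin anywhere within 5 bases of the annotated start, 9 members and 22.0% of all starts matched. A member counted if any of its starts matched, so shares of single starts are an unlike measure. Counted by gene over all genes tested that had an entry, 244 matched the strict form and 7780 did not. For the looser form 2126 matched and 5898 did not, against 9 and 25 of the members. Among cytosolic ribosomal protein genes, textbook carriers of the tract, 13 of 55 with an entry matched the strict form. A match is a description of these letters, and no match says nothing about how an mRNA is regulated.

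Between the genotypes, 6 of the 42 members passed the test, 5 lower and 1 higher in Srsf1-cKO. The 5 that fell were Eif2a, the eIF3 subunits Eif3h, Eif3k and Eif3f, and Eif1, and the one that rose was Eif5a2. These 6 make 14.3% of the members, against 18.4% of all 10454 genes tested (edgeR quasi-likelihood test, adjusted p under 0.05). By direction, 2.38% of members and 8.9% of all genes rose, and 11.9% of members and 9.5% of all genes fell, so the members' shares lay near or below those of all genes. The 3 libraries of one group lay wholly above or below those of the other for 18 members, 7 higher and 11 lower in Srsf1-cKO. That is 42.9% of members against 39.4% of all genes, where 19.9% were higher and 19.5% lower. The median log2 fold change of the members was -0.07, against 0.01 over all genes tested, with 17 members above zero and 25 below. On library-size scaling the median over all genes moved to 0.11 and that of the members to 0.03, with 24 above zero and 18 below. The sign of the members' median thus turned with the scaling, while on both scalings it lay below the median over all genes. The gene by gene changes below are on TMM scaling, and the 6 called members kept their direction on every other scaling.

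**Figure D1:**
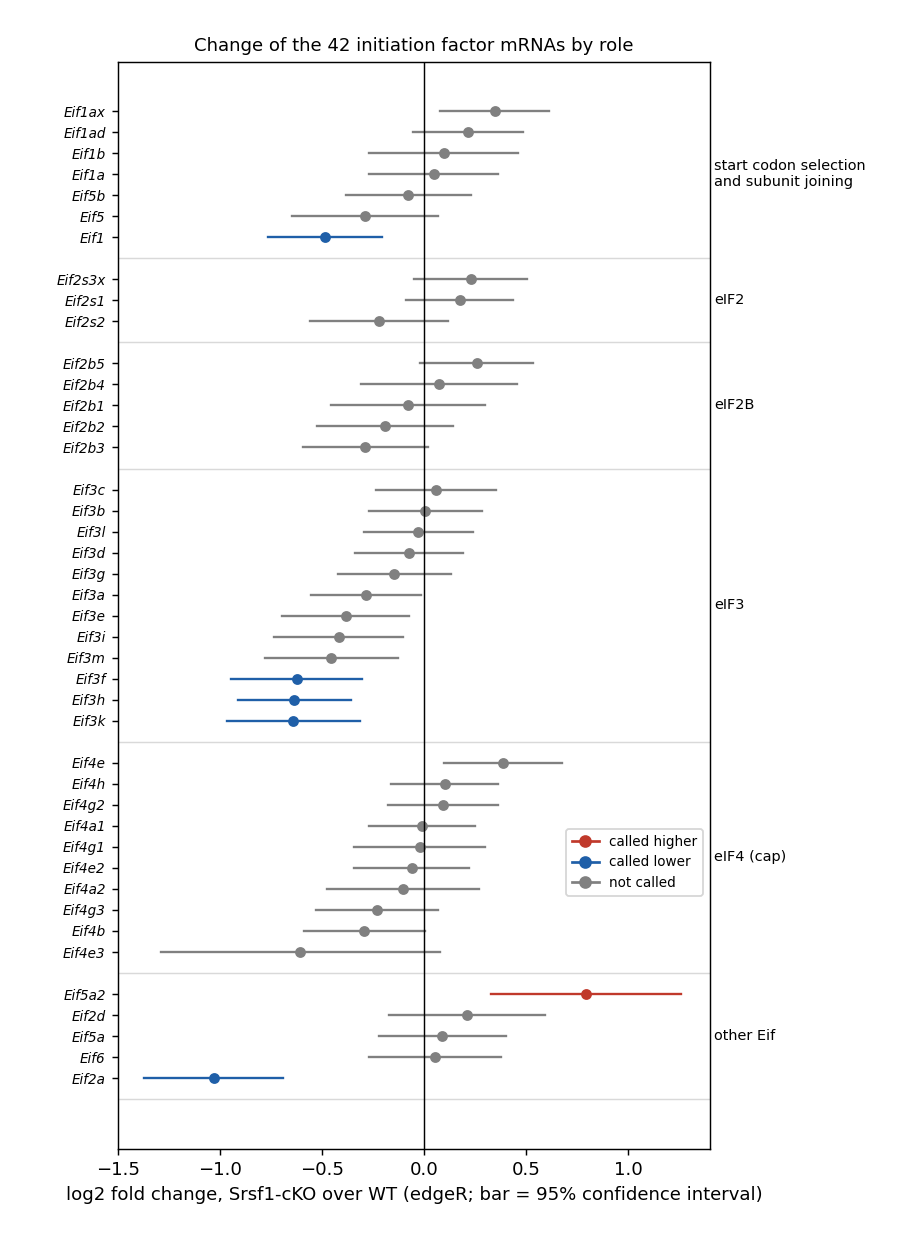
Log2 fold change of each of the 42 members, Srsf1-cKO over WT, grouped by role, as points with 95% confidence intervals from edgeR (3 libraries a group). The members called lower (blue) are 3 eIF3 subunits, Eif1 and Eif2a, Eif5a2 is called higher (red), and no member of eIF2, eIF2B or eIF4 is called.

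Eif2a had the largest change of any member. The protein, eIF2A, binds initiator tRNA without GTP and is a different protein from the alpha subunit of eIF2, which is encoded by Eif2s1. Eif2a stood at 391.8, 430.2 and 316.2 CPM in the WT libraries and at 205, 170 and 182 CPM in Srsf1-cKO. The lowest WT library was thus well above the highest Srsf1-cKO library. Eif2a fell by 1.03 on the log2 scale (SE 0.15, 95% interval -1.37 to -0.69, edgeR adjusted p = 0.00667), a fall of the mean from 379 ± 58.0 to 185 ± 17.98 CPM (SD, n = 3). It passed the threshold in all 18 other analyses tried, including each of the 6 that left out 1 library, with an adjusted p of at most 0.0456 and a log2 fold change between -1.17 and -0.91.

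**Figure D2:**
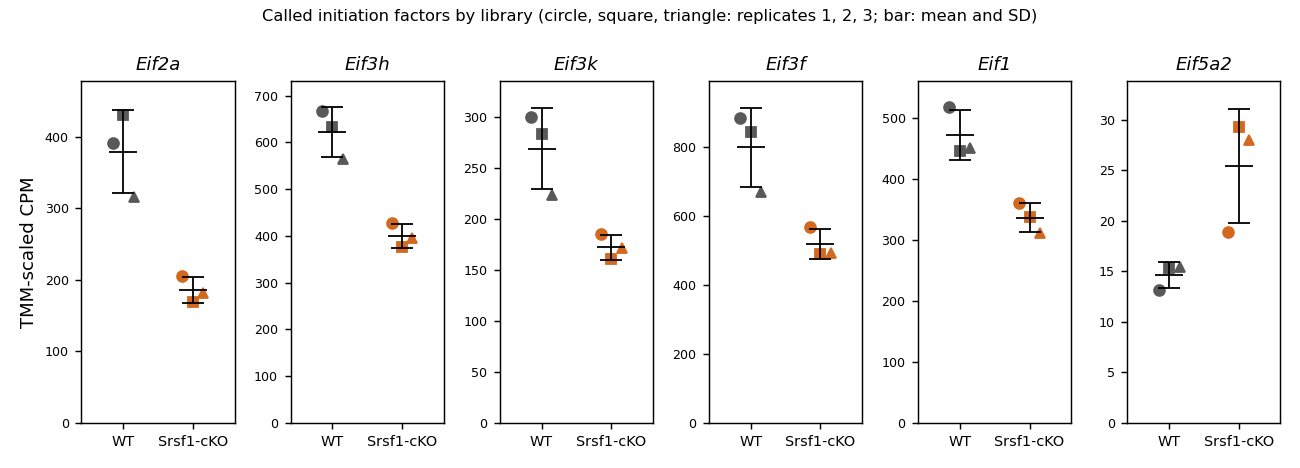
TMM-scaled CPM of the 6 called members in each library (symbols: replicates 1, 2 and 3), with the mean and SD of 3 libraries, on axes that start at 0. The WT and Srsf1-cKO libraries do not overlap for any of the 6, and for Eif2a the lowest WT library stands at 316 CPM against 205 in the highest Srsf1-cKO library, the widest gap of the 6 as a ratio.

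The eIF3 complex held 3 of the 5 members that fell. eIF3 is the largest initiation factor, a scaffold on the small subunit that receives the other factors and the mRNA. Of its 12 subunits tested, 3 fell (25%, against 9.5% of all genes) and none rose. By the same edgeR test 7 of the 12 were lower and 0 higher at an unadjusted p under 0.05, DESeq2 called 5 lower and 0 higher, and limma-voom called 3 lower and 0 higher. Over all 10454 genes tested, DESeq2 called 2290 and limma-voom 1896 in either direction. The share of all genes at an unadjusted p under 0.05 is not given, so counts by that rule, here and below, have no background. The median log2 fold change of the 12 subunits was -0.34, and 10 of 12 were below zero. On library-size scaling the median was -0.23 with 8 of 12 below zero, while the median over all genes was 0.11, so the gap to all genes was of like size on either scaling.

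Eif3h stood at 668, 633 and 564 CPM in WT and at 427, 377 and 395 CPM in Srsf1-cKO. This subunit, of the MPN domain type, lay lower in each Srsf1-cKO library than in any WT library (log2 fold change -0.64, SE 0.12, edgeR adjusted p = 0.0125). Eif3k, a PCI subunit, stood at 300.03, 283 and 224 CPM in WT and at 185, 160 and 172 CPM in Srsf1-cKO. Its groups were also apart (log2 fold change -0.64, SE 0.14, edgeR adjusted p = 0.0198). Eif3f, the other MPN subunit and the one whose start sequence carries the tract, stood at 883, 843 and 669 CPM in WT and at 568, 491 and 493 CPM in Srsf1-cKO. The lowest WT value again exceeded the highest Srsf1-cKO value (log2 fold change -0.63, SE 0.14, edgeR adjusted p = 0.0207). In all 3 subunits WT replicate 3 was the lowest WT library and Srsf1-cKO replicate 1 the highest of its group.

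All 3 subunits passed without WT replicate 2, WT replicate 3 or Srsf1-cKO replicate 1, but not without certain other libraries. Without WT replicate 1 their adjusted p in edgeR was 0.0647 (Eif3h), 0.0921 (Eif3k) and 0.0931 (Eif3f), and without Srsf1-cKO replicate 2 it was 0.0766, 0.0991 and 0.101. Eif3f was also lost without Srsf1-cKO replicate 3 (adjusted p = 0.0518), and on FPKM with no filter on low values limma called neither Eif3f (0.0602) nor Eif3k (0.0564). In the analyses without WT replicate 1 or Srsf1-cKO replicate 2, the calls over all genes dropped from 1923 to 195 and 234, and the log2 fold changes of the 3 subunits stayed between -0.60 and -0.56. Without WT replicate 3, by contrast, 6 eIF3 subunits were called lower: Eif3e, Eif3i and Eif3m joined the 3, and the subunits' median was -0.43.

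The other eIF3 subunits spread from near the called ones to no difference. Eif3m, a PCI subunit, stood at 518, 513 and 390 CPM in WT and at 372, 339 and 325 CPM in Srsf1-cKO. All 3 Srsf1-cKO libraries lay below WT, but the test missed the threshold (log2 fold change -0.45, SE 0.14, edgeR adjusted p = 0.0578), while DESeq2 called it (adjusted p = 0.0291). Eif3e, the subunit with the highest mean FPKM over all 6 libraries, stood at 923, 954 and 755 CPM in WT and at 742, 655 and 618 CPM in Srsf1-cKO. Its lowest WT library, at 755 CPM, lay just above the highest Srsf1-cKO library, at 742 CPM (log2 fold change -0.38, SE 0.14, edgeR adjusted p = 0.0834). Eif3i (log2 fold change -0.42, adjusted p = 0.0674, edgeR) and Eif3a (-0.29, adjusted p = 0.123), the large subunit on which the complex is built, were also without overlap. DESeq2 called Eif3i lower (adjusted p = 0.0437). Eif3b, Eif3c, Eif3d, Eif3g and Eif3l overlapped between the genotypes, with log2 fold changes from -0.15 to 0.06. Of the 8 subunits that form the core with PCI and MPN domains (a, c, e, f, h, k, l and m), 3 fell (37.5%, against 9.5% of all genes) and 6 did not overlap on the lower side (75%, against 19.5%), with a median of -0.42. At an unadjusted p under 0.05 in edgeR 6 of the 8 were lower, and DESeq2 called 4 and limma-voom 3 lower. Of the 4 outside it (b, d, g and i), none was called by edgeR and 1 did not overlap, with a median of -0.11; at an unadjusted p under 0.05 the count was 1 lower, and DESeq2 called 1 and limma-voom 0. This split was made after the values were seen and was not tested.

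**Figure D3:**
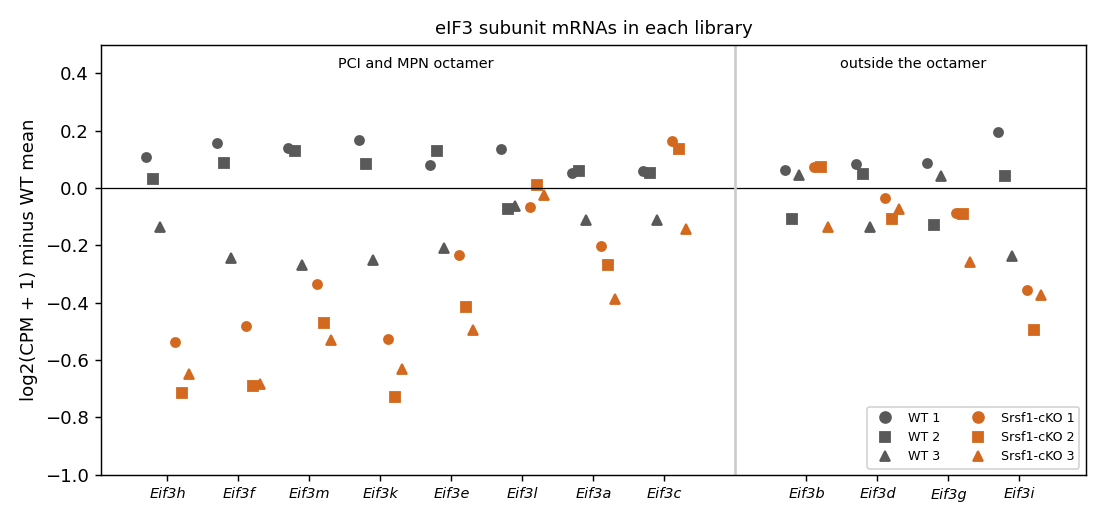
Each eIF3 subunit in each library as log2(CPM + 1) minus the mean of the 3 WT libraries, with the 8 subunits of the PCI and MPN core on the left and the 4 others on the right. Eif3h, Eif3f and Eif3k sit lowest in Srsf1-cKO, Eif3b, Eif3c and Eif3l scatter around the WT mean, and WT replicate 3 (grey triangles) is the WT library nearest to Srsf1-cKO for most subunits.

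Length-scaled levels show how unevenly the subunits differed within the complex. Summed over the 12 subunits, FPKM (fragments scaled by transcript length and library size) was 3478, 3578 and 3008 in the WT libraries and 2941, 2826 and 2660 in Srsf1-cKO. All 3 sums in Srsf1-cKO were lower than in WT. In WT, Eif3h averaged 503 ± 39.6 FPKM and Eif3c 277 ± 18.8 (SD, n = 3). In Srsf1-cKO they averaged 347 ± 16.4 and 308 ± 34.5, so 2 subunits that were well apart in WT approached each other. Eif3j2, for the loosely bound j subunit, shows a limit of the count table. It held 0 counts in every library, but the authors' FPKM table lists it at 124, 129 and 129 in WT and at 157, 164 and 144 in Srsf1-cKO. Eif3j1, its near-identical copy, is listed there at 0.10 to 0.14 FPKM. On the FPKM scale the groups of Eif3j2 did not overlap, but limma on log2(FPKM + 1) did not call it (difference 0.28, adjusted p = 0.0944). Eif3j2 was left out of every count given here.

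Among the factors of start codon selection and subunit joining, 1 of 7 fell (14.3%, against 9.5% of all genes) and none rose. Eif1, which lets the scanning subunit reject wrong start codons, stood at 518, 445 and 450 CPM in WT and at 360, 337 and 312 CPM in Srsf1-cKO. By FPKM it had the highest mean level of the 7, and it lay lower in all 3 Srsf1-cKO libraries (log2 fold change -0.49, SE 0.12, edgeR adjusted p = 0.0296). Eif1 passed in 12 of the 18 other analyses, the fewest among the 6 called members, and its edgeR call was lost without WT replicate 1 (adjusted p = 0.117), without Srsf1-cKO replicate 1 (0.0596), replicate 2 (0.121) or replicate 3 (0.0612). Eif1ax, one of the 2 genes for eIF1A, which binds the decoding site during scanning, stood at 162, 141 and 162 CPM in WT and at 196, 192 and 203 CPM in Srsf1-cKO. The Srsf1-cKO libraries were higher throughout, and the edgeR test missed the threshold (log2 fold change 0.35, SE 0.12, adjusted p = 0.0725). On FPKM limma called it higher (difference 0.44, adjusted p = 0.0269). So did edgeR on library-size scaling (adjusted p = 0.0291), but not on upper-quartile scaling (0.0563). Eif1a, the other gene, showed a log2 fold change of 0.05 with overlapping groups. Eif1ad, a protein with an eIF1A domain, was without overlap on the higher side (0.21, edgeR adjusted p = 0.236). Eif5, which makes eIF2 hydrolyse its GTP, and Eif5b, the GTPase of subunit joining, overlapped between the groups (-0.29 and -0.08). For the 7 genes 1 was higher and 1 lower at an unadjusted p under 0.05, and DESeq2 and limma-voom each called 0 higher and 1 lower.

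None of the genes for eIF2 or its exchange factor passed the edgeR test. The 3 subunits of eIF2 carry the initiator tRNA, and the alpha subunit is the target of the kinases that halt initiation under stress. Eif2s2, for the beta subunit and the highest of the 3 by FPKM, stood at 634, 547 and 559 CPM in WT and at 573, 512 and 408 CPM in Srsf1-cKO, with overlap (log2 fold change -0.22, SE 0.15, edgeR adjusted p = 0.325). Eif2s3x stood at 95.6, 104 and 95.6 CPM in WT and at 115, 124 and 107 CPM in Srsf1-cKO, without overlap (0.23, SE 0.12, edgeR adjusted p = 0.217). limma on FPKM called Eif2s3x higher (difference 0.42, adjusted p = 0.0487). Eif2s1 was without overlap on the higher side as well (0.17, edgeR adjusted p = 0.315). In the 3 genes of eIF2 and the 5 of eIF2B, 0 had an unadjusted p under 0.05 in edgeR, and DESeq2 and limma-voom called 0 in either complex. The subunits of eIF2B were far less abundant than those of eIF2, at 12.2 to 29.5 FPKM in WT against 98.4 to 325. Eif2b5, for the catalytic epsilon subunit, stood at 107, 97.3 and 108 CPM in WT and at 126, 133 and 114 CPM in Srsf1-cKO, all higher (0.26, SE 0.12, edgeR adjusted p = 0.172). Eif2b3, for the gamma subunit, lay on the other side, with 49.9, 53.2 and 46.6 CPM in WT and 43.4, 39.3 and 39.8 in Srsf1-cKO (-0.29, SE 0.14, edgeR adjusted p = 0.167). Eif2b1, Eif2b2 and Eif2b4 overlapped, with log2 fold changes of -0.08, -0.19 and 0.07.

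In the eIF4 group, which binds the cap and unwinds the leader, 0 of 10 members were called by edgeR, DESeq2 or limma-voom, and 1 was higher and 0 lower at an unadjusted p under 0.05. Eif4a1, the helicase and the member with the highest mean FPKM over all 6 libraries, stood at 1232, 1082 and 1102 CPM in WT and at 1165, 1116 and 1106 CPM in Srsf1-cKO. The groups overlapped, with a log2 fold change of -0.01 and a 95% interval from -0.27 to 0.25 (edgeR adjusted p = 0.950). Eif4e, the cap-binding protein, stood at 229, 213 and 269 CPM in WT and at 312, 297 and 320 CPM in Srsf1-cKO. All Srsf1-cKO libraries were higher, without passing the edgeR test (0.38, SE 0.13, adjusted p = 0.0670). limma on FPKM called it (difference 0.45, adjusted p = 0.0436), as edgeR did without WT replicate 3 (adjusted p = 0.0355). With all libraries edgeR also called Eif4e on upper-quartile (adjusted p = 0.0499) and library-size scaling (0.0315), but not on RLE scaling (0.0723). Eif4e3, a weaker cap binder, had the largest fold of the group and the largest spread, with 27.4, 40.6 and 23.8 CPM in WT and 17.4, 13.6 and 29.0 in Srsf1-cKO (-0.61, SE 0.30, edgeR adjusted p = 0.186). Eif4b, a helper of the helicase, was without overlap on the lower side (-0.29, edgeR adjusted p = 0.149). The scaffold genes Eif4g1, Eif4g2 and Eif4g3, the helicase Eif4a2, its helper Eif4h and the cap binder Eif4e2 overlapped, with log2 fold changes from -0.23 to 0.10.

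The remaining genes carry the Eif name but act beside the main pathway. Eif5a2 is the scarce paralog of Eif5a, whose protein carries the modified amino acid hypusine and helps ribosomes through difficult peptide bonds. Eif5a2 had 119, 118 and 117 counts in WT and 175, 262 and 298 in Srsf1-cKO, or 13.2, 15.4 and 15.4 CPM against 18.9, 29.2 and 28.0 CPM. The groups were apart, and Srsf1-cKO replicate 1 lay nearest to WT (log2 fold change 0.79, SE 0.21, edgeR adjusted p = 0.0313). The call was lost without WT replicate 1 (adjusted p = 0.134), Srsf1-cKO replicate 2 (0.132) or Srsf1-cKO replicate 3 (0.0749), and by limma on FPKM with no filter (0.0835). Eif5a itself stood at 1144, 873 and 1073 CPM in WT and at 1100, 1016 and 1171 CPM in Srsf1-cKO, with overlap (0.09, SE 0.14, edgeR adjusted p = 0.677). Eif2d, which like eIF2A can bring tRNA to the ribosome without eIF2, stood at 32.4, 42.3 and 30.1 CPM in WT and at 37.7, 40.6 and 42.7 CPM in Srsf1-cKO. Its groups overlapped (0.21, SE 0.17, edgeR adjusted p = 0.406), so its value lay on the other side of zero from that of Eif2a. Eif6, which keeps the large subunit from joining too early, overlapped as well (0.05).

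**Figure D4:**
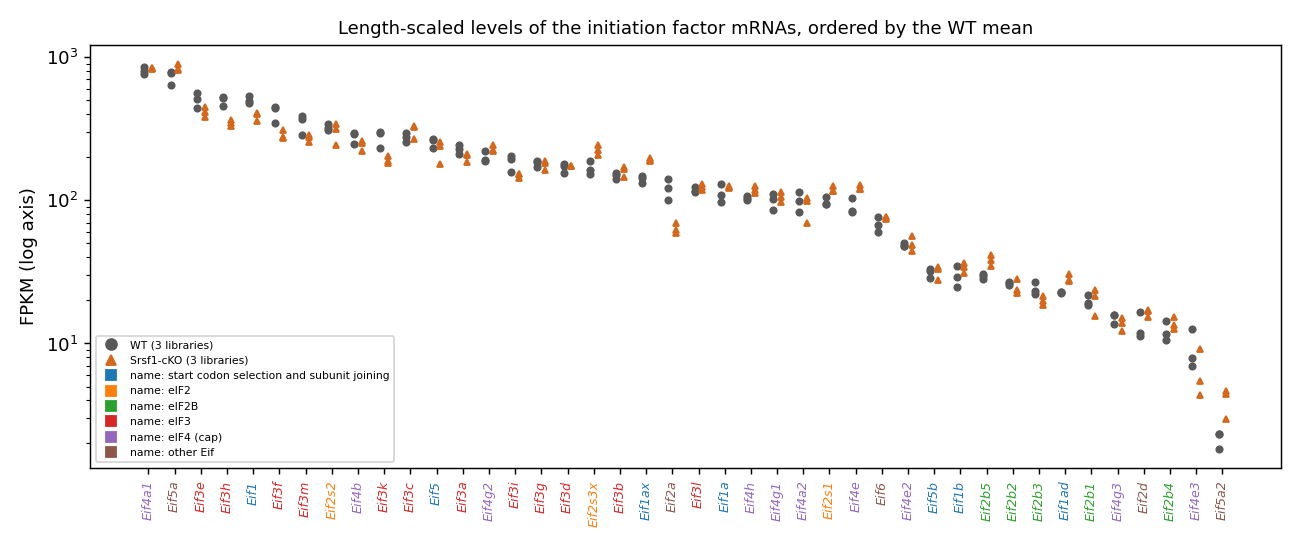
FPKM of every member in each library on a log axis, ordered by the mean of the 3 WT libraries and with names coloured by role. Levels run from Eif4a1 at 803 FPKM in WT down to Eif5a2 at 2.16, the eIF2B subunits lie between 12.2 and 29.5, and the gaps between genotypes are small beside that range.

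Per length, the members spanned a wide range of levels. In WT, Eif4a1 averaged 803 ± 45.4 FPKM and Eif5a 739 ± 82.3, followed by Eif3e (504 ± 61.2), Eif3h (503 ± 39.6) and Eif1 (501 ± 28.2). The lowest were Eif2d (13.2 ± 2.98), Eif2b4 (12.2 ± 1.97), Eif4e3 (9.16 ± 2.98) and Eif5a2 (2.16 ± 0.276). Of the 41 pairs of neighbours in this order, 31 overlapped over their 3 WT libraries and 10 did not, so the order is firm only across wider steps. Eif4a1 and Eif5a overlapped with each other and lay apart from Eif3e.

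Where 2 genes encode versions of the same factor, their shares of the pair's summed FPKM were compared library by library, with no test. Eif4e2, whose protein binds the cap without leading to initiation in the usual way, made 36.3%, 36.4% and 32.4% of Eif4e plus Eif4e2 in WT and 26.9%, 28.9% and 30.4% in Srsf1-cKO. The Srsf1-cKO shares were all lower. Eif1b made 5.17%, 6.58% and 4.96% of Eif1 plus Eif1b in WT and 7.08%, 8.33% and 8.72% in Srsf1-cKO, all higher. Eif1ax made 56.7%, 57.9% and 53.4% of the eIF1A pair in WT and 60.8%, 60.2% and 61.3% in Srsf1-cKO, again without overlap. Eif4g3 made 13.2% ± 0.695 of Eif4g1 plus Eif4g3 in WT and 11.5% ± 0.235 in Srsf1-cKO (SD, n = 3), without overlap. Eif4a2 (10.96% ± 1.45 and 9.76% ± 1.76 of the Eif4a pair) and Eif5a2 (0.296% ± 0.0635 and 0.473% ± 0.112 of the Eif5a pair) overlapped between the groups. Reads shared by near-identical copies such as Eif1a and Eif1ax could have been divided in ways that the tables do not show.

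**Figure D5:**
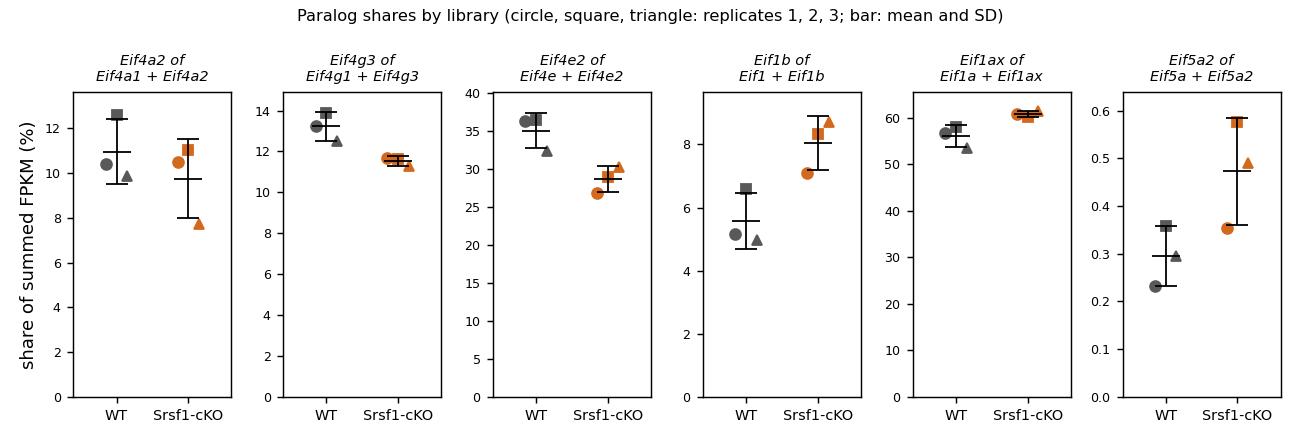
Share of one paralog in the summed FPKM of a pair, in percent, for each library with the mean and SD of 3 libraries and axes from 0. The groups are apart for Eif4g3, Eif4e2, Eif1b and Eif1ax and overlap for Eif4a2 and Eif5a2.

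Within the members, the 6 libraries were ordered mainly along one axis. The first principal component of log2(CPM + 1) over the 42 members held 71.0% of their variance, and the second 16.3%. On the first, the WT libraries stood at -1.46, -1.46 and -0.42 and the Srsf1-cKO libraries at 0.67, 1.46 and 1.21. WT replicate 3 was thus the WT library closest to Srsf1-cKO, and Srsf1-cKO replicate 1 the closest of its group to WT. Over all genes tested the first component held 55.9% of the variance and also split the genotypes. There the WT libraries stood at -33.6, -21.7 and -28.8 and the Srsf1-cKO libraries at 21.8, 30.8 and 31.5. By that measure WT replicate 2, not replicate 3, was the WT library closest to Srsf1-cKO.

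The partners and regulators of initiation, a list of 35 genes that were all tested, held 4 that fell and none that rose (11.4%, against 18.4% of all genes). By an unadjusted p under 0.05 in edgeR, 4 were higher and 7 lower, and DESeq2 and limma-voom each called 1 higher and 5 lower. Pabpc1, the cytoplasmic poly(A)-binding protein that joins the mRNA's tail to eIF4G and the highest of the list by CPM, stood at 5188, 4912 and 4572 CPM in WT and at 3599, 3277 and 3206 CPM in Srsf1-cKO. The groups were far apart for their spread (log2 fold change -0.54, SE 0.12, edgeR adjusted p = 0.0183). Its relative Pabpc4, a poly(A)-binding protein known from activated T cells, stood at 207, 143 and 168 CPM in WT and at 97.8, 111 and 98.1 CPM in Srsf1-cKO (-0.75, SE 0.16, edgeR adjusted p = 0.0154). Paip2, which holds poly(A)-binding protein off the mRNA, fell from 250 ± 18.7 to 188 ± 12.05 CPM (SD, n = 3; -0.41, SE 0.12, edgeR adjusted p = 0.0476). Ppp1r15a, which directs a phosphatase to eIF2 and so undoes its inhibition, stood at 140, 110 and 97.3 CPM in WT and at 73.8, 62.7 and 80.6 CPM in Srsf1-cKO (-0.68, SE 0.17, edgeR adjusted p = 0.0273).

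None of these 4 partner calls held without WT replicate 1 (edgeR adjusted p from 0.0666 to 0.134) or without Srsf1-cKO replicate 2 (0.0627 to 0.203). Among the analyses that left out 1 library, Paip2 was called only without WT replicate 3 (adjusted p = 0.0379), and on library-size scaling it was not called (0.105), while Ppp1r15a was lost as well without Srsf1-cKO replicate 1 (adjusted p = 0.0676). Of the 4 kinases that phosphorylate eIF2, none passed the edgeR test. Eif2ak4, which senses uncharged tRNA, averaged 36.0 and 50.4 CPM in WT and Srsf1-cKO (0.49, adjusted p = 0.0517), and Eif2ak3, which senses stress of the endoplasmic reticulum, averaged 40.8 and 29.1 (-0.49, adjusted p = 0.0523). Eif4ebp1, which keeps eIF4E from eIF4G, overlapped between the groups (-0.07, adjusted p = 0.886).

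The members stood apart from another arm of the translation machinery in this contrast, and the difference between the lists was not tested. Of 74 cytosolic ribosomal protein genes 69 fell and none rose, with a median log2 fold change of -0.71, against -0.07 for the members. At an unadjusted p under 0.05, 0 of the 74 were higher and 73 lower, and DESeq2 and limma-voom each called 69 lower and 0 higher. These calls too dropped without WT replicate 1 (9 lower) and without Srsf1-cKO replicate 2 (6 lower). Of 13 tested genes listed with elongation and termination, 5 fell, and the list's median was -0.29. Of these 5, 4 are elongation factors: Eef2, the translocase (-0.93, edgeR adjusted p = 0.00673), Eef1a1, which brings tRNA to the ribosome (-0.57, adjusted p = 0.0173), Eef1b2 (-0.66) and Eef1g (-0.79). The other, Tpt1 (-0.70, adjusted p = 0.0111), is itself no elongation factor, and the list also holds the kinase Eef2k. Eef2k was without overlap on the higher side and missed the threshold (1.15, edgeR adjusted p = 0.0594). None passed as higher in edgeR, 1 was higher and 6 lower at an unadjusted p under 0.05, and DESeq2 and limma-voom each called 1 higher and 5 lower. Without WT replicate 1 the count of 5 dropped to 2, and without Srsf1-cKO replicate 2 to 1. Of 20 aminoacyl-tRNA synthetases, which load tRNA with amino acids, 1 rose (Hars, 0.49, adjusted p = 0.0277) and none fell in edgeR, with a median of 0.01. At an unadjusted p under 0.05, 1 was higher and 2 lower, DESeq2 called 1 of each and limma-voom 1 higher. The median of the eIF3 subunits, -0.34, thus lay between those of the synthetases and the ribosomal proteins. Ribosomal protein genes and several members have processed copies in the genome, and 14.93% to 17.02% of reads mapped to several places, 15.69% to 17.02% in WT and 14.93% to 15.93% in Srsf1-cKO, whose part in these differences was not tested.

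The deposited FPKM table gave a partly different set. limma on log2(FPKM + 1) called 8 of the 42 members, against 18.7% of 9617 genes, with 4 lower (Eif2a, Eif3f, Eif3h and Eif3k) and 4 higher (Eif1ax, Eif2s3x, Eif4e and Eif5a2). Folds on this scale understate changes of low genes. The median difference over all genes was 0.10 there, and that of the members 0.03, so the members lay below the median gene. With no filter on low values the order was the other way, 0.0254 over all genes and 0.0311 for the members. Eif2a was at 122, 142 and 101 FPKM in WT and at 69.2, 59.6 and 62.5 FPKM in Srsf1-cKO (difference -0.91, adjusted p = 0.0107). Eif1 narrowly missed the threshold on this scale (-0.36, adjusted p = 0.0505).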

How the data were processed

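RNA of 6 libraries (3 WT, 3 Srsf1-cKO, 1 mouse each per the series' design text) was sequenced from one end over 75 bp after a stranded mRNA preparation. The authors deposited raw read counts per gene, a table whose values fit FPKM by their size and decimals, and an alignment report of other metrics per library. STAR 2.4.2a is named per the file headers, and Cufflinks and the mm9 build per the submitters' processing notes. Neither the annotation, the counting program nor the use of strand is given in any source used here, and genes that overlap, lie antisense or have copies may share reads. Dates stand in place of 27 gene names and were kept.

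The main test of the counts was that of edgeR 4.0.16, run in R 4.3.3 (filterByExpr, TMM, quasi-likelihood test, two-sided, genotype as the only term, Benjamini-Hochberg over all genes tested, called under 0.05). For FPKM, limma-trend (limma 3.58.1) was applied to log2(FPKM + 1), keeping rows that reached 1 in 3 libraries or more. Alternatives tried were scaling by RLE, upper quartile or library size only, TMM factors without translation genes, 2 other filters, DESeq2 1.42.0, limma-voom, a replicate block, each library left out, 2 other thresholds and the FPKM table. Those for the eIF3 subunits, the comparison lists and the called partners were added after the data were seen. The fits of edgeR with and without the replicate block, DESeq2, limma-voom and limma on log2 values were checked on simulated counts. The other scalings and filters and the runs with a library left out were not. All replicates differed by more than sampling noise (chi-square per degree of freedom 6.25 to 37.5), and p-values measure the spread between these libraries.

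The members and lists were chosen with earlier results of these data known. Described in full are Srsf1, called members, and in each role group the member with the highest mean level and the one not called with the largest fold. Of the partners, the called ones (up to 12 by adjusted p) and the most abundant are given, and other genes by value or range. Genes outside this rule, such as Eif4e, Eif2ak3, Eif2ak4, Eif4ebp1, Eef1a1, Eef2 and Hars, were named after their values were seen. Start sequences are RefSeq's on GRCm38.p6.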

Additional observations from a re-analysis of the deposited data

How the results depend on the processing

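With 3 libraries a group and 14.65 CPM for the scarcest member in WT, small differences of low genes were not detectable. All 6 called members kept their direction in 18 of 18 other analyses, but the members' median changed sign on library-size scaling and on FPKM. Over all members 720 single values stayed on their side of the threshold, 17 passed it anew and 19 were lost. The cause of the shifts below was not tested. Leaving out a library leaves fewer samples, but calls over all genes, 1923 in the main test, moved unevenly. They were 195, 1989 and 1978 without WT replicates 1, 2 and 3. Without Srsf1-cKO replicates 1, 2 and 3 they were 1121, 234 and 1376. On upper-quartile and library-size scaling they were 1873 and 1977. A mean CPM of 5 or more gave 1659 of 8802 genes, and no filter on low counts 2172 of 15114. On FPKM they were 1801 with pseudocount 1, 1774 with pseudocount 0.1, and 1146 of 15192 with no filter. Calls over all genes at an adjusted p under 0.01 or 0.1 are not given, so counts at these thresholds below have no background.

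Members called higher (1) became 2 on upper-quartile scaling, 3 on library-size scaling, 4 on FPKM with either pseudocount, 0 at an adjusted p under 0.01, 3 under 0.1, and 0 to 2 with 1 library left out. Members called lower (5) became 2 on FPKM with no filter, 1 under 0.01, 8 under 0.1, and 1 to 8 with 1 library left out. Members without overlap on the lower side (11) numbered 11 to 17 with 1 library left out. With fewer libraries the groups of any gene come apart more easily, and the share over all genes is not given for these runs. The members' median log2 fold change (-0.069) became 0.035 on library-size scaling and 0.031, 0.032 and 0.031 on FPKM with pseudocount 1, pseudocount 0.1 and no filter. That of the eIF3 subunits (-0.336) became -0.234 on library-size scaling and -0.229, -0.23 and -0.229 on FPKM, and ran from -0.428 to -0.282 with 1 library left out. The eIF3 subunits called lower (3) became 5 in DESeq2 and 1 on FPKM with no filter, and 0 to 6 with 1 library left out.

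Partners called higher (0) became 1 on upper-quartile scaling, with a mean CPM of 5 or more, in DESeq2 and in limma-voom, 2 on FPKM with either pseudocount, 3 on library-size scaling and under 0.1, and 0 to 1 with 1 library left out. Partners called lower (4) became 0 on FPKM with no filter and under 0.01, and 0 to 4 with 1 library left out. Ribosomal proteins called lower (69) became 26 on FPKM with no filter and 6 to 71 with 1 library left out. Elongation factors called higher (0) became 1 on library-size scaling, with no filter on low counts, in DESeq2, in limma-voom and with the replicate block, and 0 to 1 with 1 library left out. Those called lower (5) became 3 on FPKM with no filter and 1 to 6 with 1 library left out. Synthetases called lower (0) became 1 in DESeq2 and with the replicate block, and 0 to 1 with 1 library left out, and those called higher (1) became 0 to 2. The looser rule for an oligopyrimidine start gave 9 members in place of 2.

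Same-numbered libraries correlated by 0.25, 0.01 and 0.29 in their deviations from the group means. WT replicates 1 and 3 each correlated best with the Srsf1-cKO library of the same number, but WT replicate 2 with Srsf1-cKO replicate 1 (0.21). Whether replicate numbers pair the libraries cannot be settled from so few correlations. With the replicate block all 6 called members passed, Eif3m passed as well (log2 fold change -0.445, adjusted p = 0.0416), Paip2 did not (0.0612), and calls over all genes went from 1923 to 2270.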
